A study of Mus musculus with 6 samples.

Results

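Reelin is a large glycoprotein that neurons secrete into the tissue around them, and the genes described here make reelin and the proteins that carry its signal into migrating neurons. They were Reln (reelin itself), Vldlr and Lrp8 (its receptors, the second also called ApoER2), Dab1 (the adaptor bound to the receptor tails), Cdk5 and its activator Cdk5r1 (p35), and Pafah1b1 (Lis1, a dynein regulator). Members were found by gene name among the probes of the array that are not controls, which gave 15 probes of 7 genes, out of 55681 probes carrying 34797 names. The genes were chosen by a rule that used their levels and dose differences on these same arrays, so both are given below as a description and carry no test.

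In the perinatal cerebellum, granule cell precursors and neurons of the cerebellar nuclei secrete reelin, and Purkinje cells read it while they spread into a layer. Binding to Vldlr or Lrp8 clusters the receptors, Src-family kinases phosphorylate Dab1, and phosphorylated Dab1 recruits adaptors that act on adhesion, on PI3K signalling and on microtubules through Lis1. Cdk5 with p35 acts beside this route and is needed for the same migrations, and phosphorylated Dab1 is finally degraded.

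Cerebellum of C57BL/6J pups at postnatal day 1 was compared between dams fed an amino acid based AIN-93G diet with folic acid (FA) at 2 mg/kg and dams fed it with 20 mg/kg, from 1 week before mating through pregnancy. Male and female pups were kept apart, and each array held RNA of a pool of 3 pups from different dams. There were 6 one-colour arrays in 4 groups: 1 array at 2 mg and 2 arrays at 20 mg for each sex, the extraction protocol saying that the 20 mg group was repeated with pools of another batch of pups. One label field gives the tissue as whole brain, whereas the titles and the methods give cerebellum. Of 6 granule cell lineage markers all were well above background on the 5 brighter arrays, and of 9 forebrain markers between 4 and 9 were, so genes that mark forebrain were measured as well.

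The array labelled female 20 mg replicate 2 stood apart. Only 23.3% of its probes were well above background, against 51.1% to 71.9% on the other arrays, and its median processed signal was 5.14 against 39 to 162. Dose differences that rest on it are therefore also given without it, after the other 5 arrays had been normalized anew. Both 2 mg arrays and female 20 mg replicate 1 shared a slide. The dim array and male 20 mg replicate 1 were on another slide, and their scan day came before that of the other 4 arrays. Male 20 mg replicate 2 was alone on a further slide. Neither male 20 mg array thus shared a slide with the male 2 mg array, and in males dose and slide cannot be told apart. The 2 mg groups had 1 array each, so no spread is known there, and nothing says whether a difference from them exceeds the spread between 2 mg pools. In RNA of whole tissue, fewer cells of a type and less RNA per cell cannot be told apart.

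The sequences of 4 probes are shown because the report turns on what they read: the single Reln probe, the Vldlr probe that differed from its brighter neighbour, and a pair of Dab1 probes annotated to the same transcript as Dab1 probe 1. Each is 60 bases, written 5′ to 3′ as the scanner files give it, and has at least 1 forward reading frame with no stop codon.
Reln, chr5:21404915-21404974 (mm9, minus strand): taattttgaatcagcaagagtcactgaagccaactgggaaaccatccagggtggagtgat
Vldlr probe 2, chr19:27321104-27321163 (mm9, plus strand): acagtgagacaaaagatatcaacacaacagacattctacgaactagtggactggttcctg
Dab1 probe 3, chr4:104352164-104352720 (mm9, plus strand): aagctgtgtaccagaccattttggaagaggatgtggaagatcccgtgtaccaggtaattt
Dab1 probe 4, chr4:104352077-104352136 (mm9, plus strand): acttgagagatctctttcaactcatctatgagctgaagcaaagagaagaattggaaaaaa
Dab1 probe 3 spans 557 bases of the genome, 497 more than it holds, so it crosses at least 1 splice junction, while the other probes lie in 1 block. Probes of a gene are numbered from the brightest down. An exon or UTR annotation of this build was not used here.

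Reln was higher on each 20 mg array than on either 2 mg array. In females its quantile-normalized log2 intensity was 5.40 at 2 mg, and 6.87 and 8.76 at 20 mg. In males it was 5.68 at 2 mg, and 7.74 and 7.03 at 20 mg. The lowest 20 mg value was thus above both 2 mg values, which differed between the sexes by 0.28. This probe, the sole reader of the ligand on the array, was well above background on 5 arrays and not on female 20 mg replicate 2, where the value of 8.76 rests on a dim spot.

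**Figure D1:**
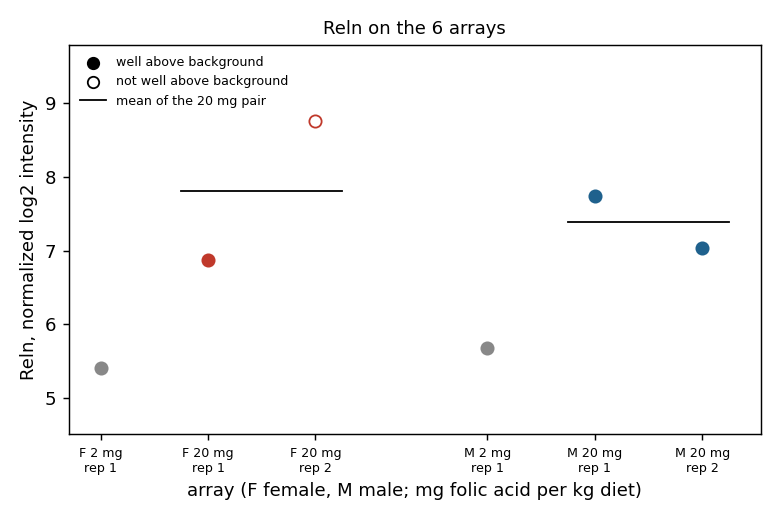
Normalized log2 intensity of the Reln probe on each of the 6 arrays, by sex and maternal FA dose, with filled points for spots well above background, an open point for the spot that was not, and lines at the mean of each 20 mg pair. The 2 mg arrays are at 5.40 and 5.68 and the 20 mg arrays are between 6.87 and 8.76.

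The mean of the 20 mg pair was 7.81 ± 1.33 (SD, n = 2) in females and 7.39 ± 0.50 (SD, n = 2) in males. That put Reln 2.41 log2 units (5.32-fold) above the 2 mg array in females and 1.70 log2 units (3.25-fold) in males. By array, the difference was 1.47 and 3.35 in females and 2.06 and 1.35 in males, where 1.32 is the log2 of 2.5-fold. Over both sexes, the limma fit gave a difference of 2.06 with a standard error of 1.53 and 2 residual degrees of freedom.

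Without the dim array the Reln difference was 1.67 in females, now from 1 array at 20 mg, and 1.89 in males. Between arrays scanned on the later day alone, with 1 array per dose and sex, it was 1.58 in females and 1.43 in males. The female pair of that comparison also shared a slide. Before normalization, the processed signal of Reln was 78.1 at 2 mg and 429 and 17.8 at 20 mg in females, and 125 at 2 mg and 288 and 101 at 20 mg in males. On the dim array and on male 20 mg replicate 2 the signal as scanned was therefore below that of the 2 mg array, and Reln is the higher one there only after normalization, both arrays being less bright overall.

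By the fold rule of the study, a variation filter over the 6 arrays followed by a mean change of at least 2.5-fold in a sex, Reln was the single member probe called higher, in both sexes. This rule called 788 of 55624 probes higher in males (1.42%) and 4810 in females (8.65%). It called 476 probes higher in both sexes (0.856%). Reln was higher by at least 2.5-fold on each of the 4 arrays at 20 mg, as were 15 probes in all (0.027%). On the 3 arrays other than the dim one, normalized anew, 37 probes were (0.0665%), and Reln was rank 19 of these by its smallest increase, 1.51. Since the genes were chosen with these values known, nothing is read from its place among them.

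The call of Reln turned on how the arrays were processed, although the difference kept its sign in each setting tried. With a background correction by normexp the male difference was 1.01 and was not called. On the mean signal with no background correction it was 0.96 in males and 1.22 in females, and neither was called. With a 75th percentile shift (1.85 and 2.56 in males and females), with no floor (1.70 and 2.41) and in the authors' deposited values (1.36 and 1.90), the size stayed past 2.5-fold but the probe did not pass the variation filter. Leaving out male 20 mg replicate 1 brought the male difference to 1.24, which is not called.

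Marker genes of other cell types were read beside Reln, since reelin comes from certain cells. The summed intensity of 4 choroid plexus markers was higher on all 4 arrays at 20 mg, as Reln was, by 4.79 and 3.30 log2 units in females and 1.03 and 1.02 in males. Most of that sum is Ttr, at 11.21 on the female 2 mg array and between 14.26 and 16.16 on the others. In linear units the sum was 2722 and 20429 on the female and male 2 mg arrays and between 26771 and 75288 at 20 mg, with 3 or 4 of the 4 well above background on every array.

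The forebrain is a further site of reelin secretion, and the sum of 9 of its markers was above that at 2 mg on female and male 20 mg replicate 1, with log2 ratios of 0.53 and 0.54. On female and male 20 mg replicate 2 it was below, with log2 ratios of -0.81 and -0.54. On these arrays 1 and 4 of the 9 markers were well above background, against 8 or 9 on the other arrays. Fezf2 and Dlx1 were called higher in males, by 2.01 and 1.67, each with 1 of the 2 arrays at 20 mg well above background. In linear units the forebrain sum was 4499 and 3291 on the female and male 2 mg arrays and between 2270 and 6505 at 20 mg.

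The 6 granule cell lineage markers (the cells that make reelin in the cerebellum) had summed log2 ratios of -0.35 and -0.92 in females and 0.08 and -0.73 in males. Most of that sum is Zic1, between 14.04 and 15.47 on the 6 arrays. Of the single markers, Pax6 was higher on all 4 arrays at 20 mg, by 0.43 and 0.99 in females and 1.25 and 0.88 in males. Neurod1 was too, by 0.47 and 0.12 in females and 1.47 and 1.16 in males, and the other 4 markers were higher on some arrays and lower on others or, for Zic1, lower on all. None of the 6 was called, and the list medians were 0.36 in females and 0.08 in males. Each marker was read by its brightest probe, and Pax6 and Neurod1 each have another probe whose values are not given. The paper lists Neurod1 among genes at least 2.5-fold lower in females at 20 mg, the opposite direction to the probe read here. The 3 markers of cerebellar nuclei had summed log2 ratios of 0.47 and -0.46 in females and 0.57 and -0.34 in males, and most of that sum is Meis2. By its brighter probe, Tbr1 differed by 1.57 and -1.19 in females and 1.70 and 0.08 in males. Lmx1a differed by -0.47 and 1.98 in females and -0.28 and -1.34 in males, and Meis2 by 0.31 and -0.95, and 0.57 and -0.29. None of the 3 was called on the 6 arrays. Without the dim array Tbr1 was called higher in females (1.51), from 1 array at 20 mg. Of 5 markers of Cajal-Retzius cells, which secrete reelin in the cortex, 4 were on the array. Their sum was at -0.07 and -0.83 in females and 0.60 and -0.28 in males. Most of it is Ebf3, between 13.17 and 14.55 on the 6 arrays. The part of choroid plexus tissue, forebrain tissue, granule cells or cerebellar nuclei in the Reln values was not tested.

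**Figure D2:**
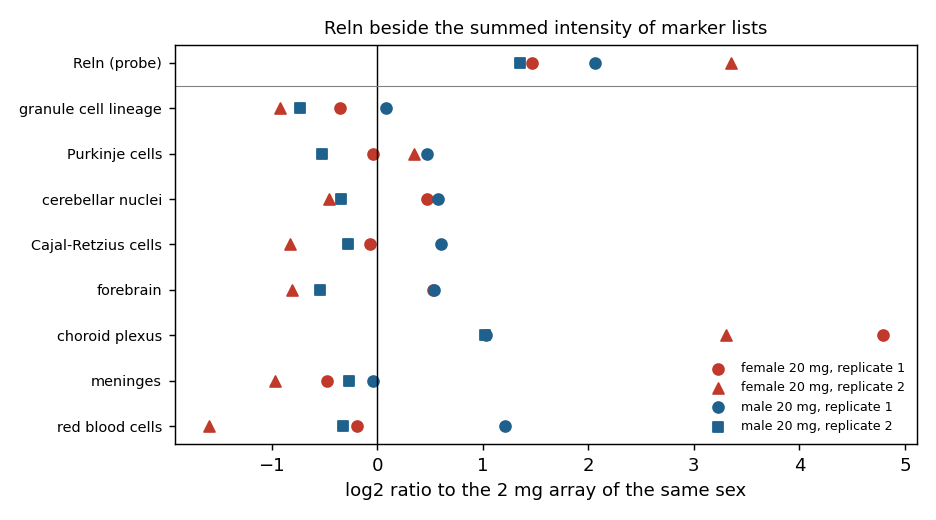
Log2 ratio of each 20 mg array to the 2 mg array of the same sex, for the Reln probe (top) and for the summed intensity of 8 marker lists. Reln and the choroid plexus list are above 0 on all 4 arrays, whereas the sum of the granule cell lineage list ranges from -0.92 to 0.08 and the forebrain list from -0.81 to 0.54.

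The receptors did not share the pattern of the ligand. The brighter Vldlr probe, at chr19:27324050-27324109, was steady: 12.63 at 2 mg and 12.66 and 12.35 at 20 mg in females, and 12.90 at 2 mg and 12.99 and 12.53 at 20 mg in males. Its doses overlapped in both sexes, with mean differences of -0.12 in females (0.04 without the dim array) and -0.14 in males. Vldlr probe 2, printed above and 2886 bases upstream in the gene, read 5.56 at 2 mg and 6.28 and 3.32 at 20 mg in females, and 5.86 at 2 mg and 8.02 and 6.10 at 20 mg in males. Its value of 3.32 is the floor, on the dim array where the spot was not well above background.

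Vldlr probe 2 was thus higher at 20 mg on the 3 other arrays, in males by 1.20 in the mean (SD of the pair 1.36, n = 2). Without the dim array its differences were 0.85 in females and 1.32 in males, the latter just called, and most of it came from male 20 mg replicate 1. In all, 2 of the 15 member probes, this one and Reln, were higher by any amount on those 3 arrays, as were 10.4% of 37151 detected probes. The probes of Vldlr therefore disagree, and the brighter one was within 0.37 of its 2 mg array on all 4 arrays.

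Lrp8, the second receptor, was lower in males and not in females by its brighter probe, at chr4:107549365-107549424. In males it read 11.68 at 2 mg and 10.55 and 10.74 at 20 mg, which is 1.13 and 0.93 log2 units below, or a ratio of 0.49 in the mean. In females it read 11.37 at 2 mg and 12.19 and 11.06 at 20 mg, on either side of the 2 mg value, with a mean difference of 0.25 that was 0.77 without the dim array. The male mean difference of -1.03 stayed between -1.14 and -0.74 in every setting tried but is short of 2.5-fold.

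Lrp8 probe 2, at chr4:107545308-107545367, read 7.43 at 2 mg and 7.31 and 3.32 at 20 mg in females, and 7.32 at 2 mg and 7.22 and 6.50 at 20 mg in males. Here all 4 arrays at 20 mg were below both 2 mg arrays, which was so for 4.59% of detected probes, by 0.12 and 0.09 on the first array of each sex. The female call of lower (-2.12) came from the floor value on the dim array, and without that array the difference was -0.13. Reln was the single probe with the 4 arrays above both, which 3.74% of detected probes were.

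**Figure D3:**
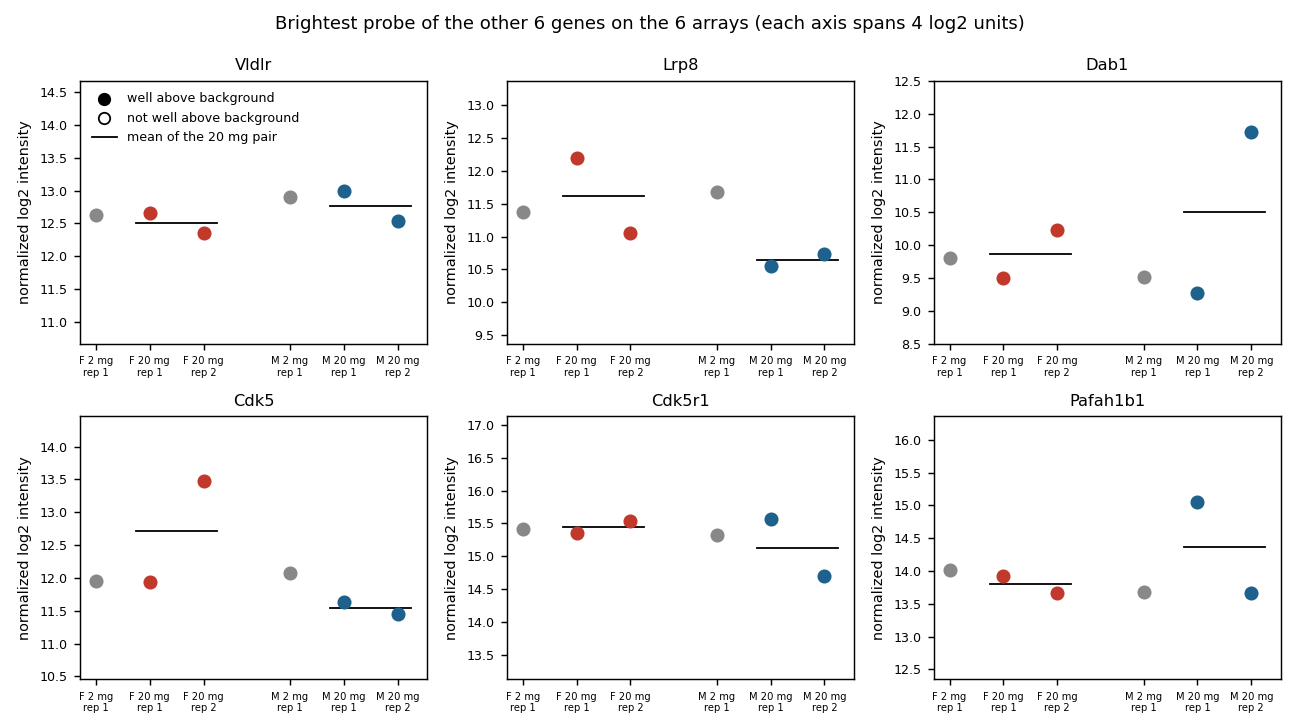
Normalized log2 intensity of the brightest probe of each of the other 6 genes on the 6 arrays, one panel per gene, with lines at the mean of each 20 mg pair and each axis spanning 4 log2 units. Lrp8 at 20 mg lies below 2 mg on both male arrays, Dab1 at 20 mg lies apart on 1 male array at 11.73, and Vldlr and Cdk5r1 stay within 1 log2 unit over all arrays.

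Dab1, the adaptor that receptor binding puts in reach of the kinases, had 4 probes that did not tell the same story. Probe 1, at chr4:104352927-104352986, read 9.81 at 2 mg and 9.50 and 10.23 at 20 mg in females. In males it read 9.52 at 2 mg and 9.27 and 11.73 at 20 mg. A single array, male 20 mg replicate 2, gave the whole male difference of 0.98, since leaving it out turned that difference to -0.26. The probe was well above background on all 6 arrays, so this one high value is not a dim spot.

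Dab1 probe 2, at chr4:104417072-104417131, lies 64085 bases beyond probe 1 and is annotated to the other of 2 RefSeq transcripts. It read 10.57 at 2 mg and 10.36 and 6.30 at 20 mg in females, and 10.19 at 2 mg and 11.40 and 10.06 at 20 mg in males. On male 20 mg replicate 2, where probe 1 was 2.22 above the 2 mg array, probe 2 was 0.13 below it. On male 20 mg replicate 1 the order was the opposite, with probe 1 at -0.25 and probe 2 at 1.20. Its female call of lower (-2.24) again came from the dim array, where it was not well above background, and without that array the difference was -0.21.

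Probes 3 and 4, printed above, read the stretch just before probe 1. Probe 3, across the junction, read 8.52 at 2 mg and 9.23 and 7.11 at 20 mg in females, and 8.57 at 2 mg and 9.94 and 8.41 at 20 mg in males. It went with probe 2 and not with probe 1 on both male 20 mg arrays, at 1.37 and -0.16. Probe 4 read 6.75 at 2 mg and 7.87 and 7.04 at 20 mg in females, and 7.36 at 2 mg and 6.92 and 7.14 at 20 mg in males. It was higher on both female and lower on both male 20 mg arrays, by 1.12 and 0.28 against -0.44 and -0.23. Such opposed directions were seen for 9.01% of 37206 detected probes.

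**Figure D4:**
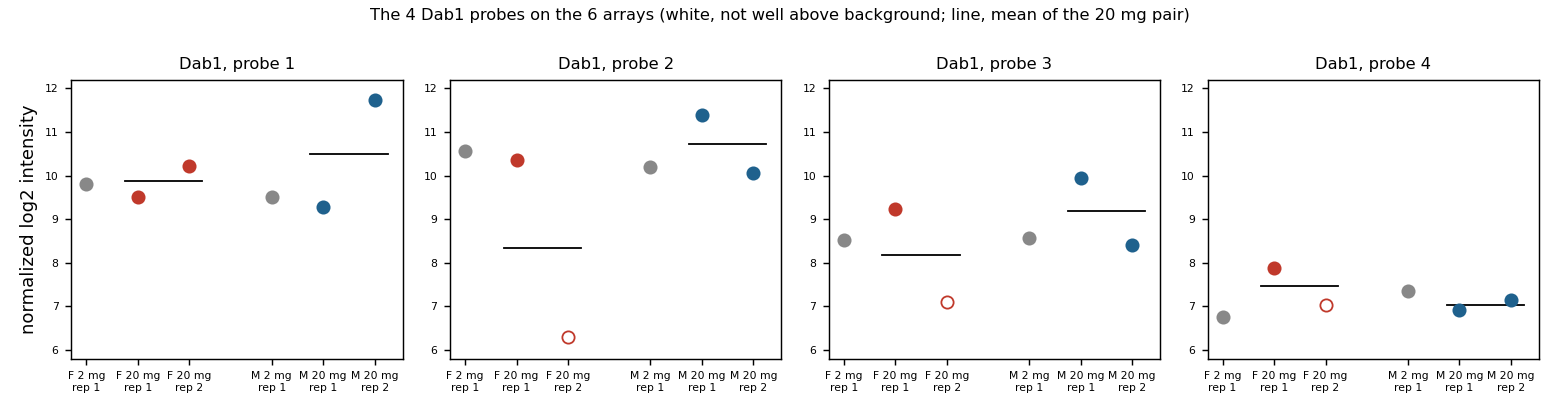
Normalized log2 intensity of the 4 Dab1 probes on the 6 arrays, filled where well above background and open where not, with lines at the mean of each 20 mg pair. Probe 1 is highest on male 20 mg replicate 2 (11.73) and probes 2 and 3 on male 20 mg replicate 1 (11.40 and 9.94).

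Cdk5, the kinase of the parallel route, was read by 1 probe at chr5:23924068-23924127. It was at 11.95 at 2 mg and 11.94 and 13.47 at 20 mg in females, and at 12.07 at 2 mg and 11.63 and 11.45 at 20 mg in males. Both male 20 mg arrays were lower, by 0.44 and 0.62. The female mean difference of 0.76 came from the dim array and was -0.01 without it. The probe was well above background on every array.

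Cdk5r1, whose product p35 switches Cdk5 on in neurons, had a pair of bright probes. Probe 1, at chr11:80293969-80294028, was at 15.42 at 2 mg and 15.35 and 15.53 at 20 mg in females, and at 15.33 at 2 mg and 15.56 and 14.70 at 20 mg in males. Probe 2, at chr11:80294581-80294640, was at 13.99 at 2 mg and 13.91 and 12.67 at 20 mg in females, and at 13.93 at 2 mg and 14.51 and 13.60 at 20 mg in males. In males the 20 mg arrays lay on either side of the 2 mg array for both probes. The female mean differences were 0.02 and -0.70, and -0.06 and -0.08 without the dim array.

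Pafah1b1, which encodes Lis1, the protein lost in classical lissencephaly, had 3 probes within 3535 bases of chromosome 11. Probe 1, at chr11:74487683-74487742, was at 14.02 at 2 mg and 13.93 and 13.67 at 20 mg in females, and at 13.68 at 2 mg and 15.05 and 13.66 at 20 mg in males. Male 20 mg replicate 1 was thus the high one by 1.36, but probe 2, which starts 93 bases away on the genome, was higher by only 0.05 on that array. Over the 3 probes the mean differences ran from -0.57 to -0.07 in females and from -0.18 to 0.67 in males, and none was called. With the dim array left out the female differences were -0.09, 0.06 and -0.56.

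**Figure D5:**
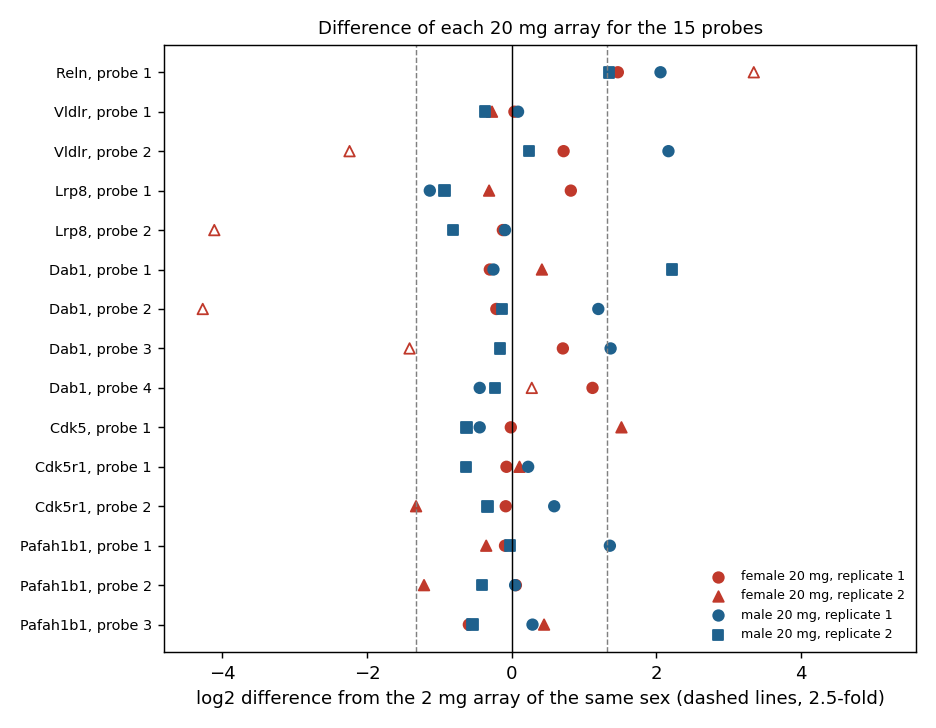
Log2 difference of each 20 mg array from the 2 mg array of its sex, for the 15 probes of the 7 genes, with open symbols where the spot was not well above background and dashed lines at 2.5-fold. Only Reln lies beyond the upper line on all 4 arrays, and the open triangles of the dim array lie farthest to the left for Vldlr probe 2, Lrp8 probe 2 and Dab1 probe 2.

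Over the 15 probes, 1 was called higher and 0 lower in males, where 2.17% of all probes were called lower. In females 1 was called higher and 2 lower, where 10.3% of all were called lower. Without the dim array the female counts were 1 higher and 0 lower, against 1.77% and 2.58% of all probes, and the male counts were 2 higher and 0 lower, against 2.55% and 3.97%. The median difference of the member probes was -0.13 in males and -0.12 in females, and that of all detected probes was -0.04 and -0.21. The female medians without the dim array were -0.01 and 0.03. Apart from Reln, then, the members as a list lay near 0, as all probes did. Besides Lrp8 probe 2, the probe lower on each of the 3 brighter 20 mg arrays was Cdk5, with 9.94% of detected probes lower on them.

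Tested by limma with Benjamini-Hochberg adjustment over all probes, dose gave 0 calls of 37206 over both sexes (0%), with 144 probes at an unadjusted p under 0.05 in a design with 1 array at 2 mg per sex. For the interaction, the difference between the sexes in their dose difference, limma also called 0 of 37206 probes, with 51 at an unadjusted p under 0.05. The sexes were compared as female minus male adjusted for dose, with 3 arrays against 3. Over all probes limma called 0 of 37206 probes (0%), 113 at an unadjusted p under 0.05, with 0.483 the smallest adjusted p. A share of 0.05 of the probes would be far more than 144, 51 or 113. The fits were thus conservative, and 0 calls do not show an absence of dose or sex differences. The rule of the genes used their levels on every array, so their sex differences are given as a description. Reln was at 7.01 in the 3 female and 6.82 in the 3 male arrays, a difference of 0.19 with a standard error of 1.01. Cdk5 was 0.74 higher in females (SE 0.58) and the brighter Lrp8 probe 0.55 higher (SE 0.58), whereas Dab1 probe 2 was 1.47 lower (SE 1.08) and Vldlr probe 2 was 1.60 lower (SE 1.15). The standard errors of the 15 probes ran from 0.44 to 1.23, with the dim array among the female ones.

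Genes that act with these members were read by their brightest probe. Of 74 listed symbols, 73 were on the array, and the other, Map1b, is another symbol of the gene read as Mtap1b. All 73 genes were well above background on at least 2 arrays. By the fold rule 1 of 73 was lower and 0 were higher in males, and 11 were lower and 0 higher in females. Over the brightest probes of 25527 detected genes, 3.16% were lower and 1.43% higher in males, and 15% lower and 4.92% higher in females, so the female count of 11 of 73 is near the share of all genes. The median difference was -0.01 in males and -0.16 in females, against -0.07 and -0.17 over those genes. Without the dim array the female counts became 1 lower and 2 higher, and the male counts 2 lower and 2 higher, so 10 of the 11 female calls went with that array. Over all detected genes 2.6% were then lower and 1.74% higher in females, and 5.37% lower and 2.13% higher in males.

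The proteases that cleave reelin were 4 genes. Adamts3, the protease that inactivates reelin by a cut near its N terminus, was read at 6.44 at 2 mg and 3.32 and 5.16 at 20 mg in females, and at 4.83 at 2 mg and 3.41 and 4.61 at 20 mg in males. It was well above background on the pair of 2 mg arrays and on none of the 4 arrays at 20 mg, so its 20 mg values are not reliable levels. A gene detected only at 2 mg will also tend to read lower at 20 mg. It is the single partner gene called lower in females with or without the dim array, and is named here after its values were seen, as are Notch1, Yes1, Mtap1b and Ppp1r1b below.

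In the group of Rap1 and adhesion, through which Dab1 signalling acts on cadherins and nectins, Rap1a was the one gene lower in males. It read 7.16 at 2 mg and 5.96 and 5.69 at 20 mg, a difference of -1.33, while in females it read 6.58 at 2 mg and 8.58 and 4.15 at 20 mg. Pvrl1 and Pvrl3, which encode nectins, were called lower in females. Pvrl1 read 12.80 at 2 mg and 11.23 and 6.41 at 20 mg, and without the dim array its difference was -1.49, which did not pass the variation filter. Pvrl3 read 10.14 at 2 mg and 9.42 and 3.32 at 20 mg, and without the dim array the difference was -0.70.

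Of the genes around Lis1 and the microtubules, Pafah1b2, a catalytic partner of Lis1 in the acetylhydrolase that gave the genes their names, was called lower in females at -2.56, from 3.32 on the dim array against 8.96 at 2 mg. On female 20 mg replicate 1 it read 9.47, above the 2 mg array. The other 11 genes of that group were not called. Among the receptors, co-receptors and ligands 3 of 12 were lower in females, among Src-family kinases and Dab1 adaptors 3 of 9 and among Dab1 turnover genes 1 of 8, beside the 15% of all detected genes called lower there, and each was no longer called without the dim array. No gene was called by its brightest probe in the PI3K, Akt and Gsk3 group (10 genes), the Cdk5 activators and substrates (8 genes) or the cofilin arm (3 genes). The paper lists Gsk3b as at least 2.5-fold lower in females at 20 mg, and Cdh2, of the adhesion group, as at least 2.5-fold higher. The brightest of 3 Gsk3b probes differed by -0.74 in females and the brighter of 2 Cdh2 probes by 0.08. Values of their other probes are not given.

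Without the dim array other partner genes came past the rule. In males Notch1, a receptor that has been linked to reelin signalling, was lower by 1.66, and Mtap1b and Ppp1r1b, Cdk5 substrates, were higher by 1.46 and 1.58. Both of the latter were highest on male 20 mg replicate 2, at 14.00 and 10.48 against 11.80 and 7.81 at 2 mg. In females Yes1, a Src-family kinase, and Rap1a were higher by 2.03 and 2.13, from 1 array at 20 mg. For Rap1a that is the opposite direction to males, where it was lower by 1.48, and limma called 0 of 37151 probes for the interaction without the dim array.

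Genes whose levels ran most like those of Reln over the 6 arrays were sought among 12789 genes well above background on at least 5 arrays, by the root mean square difference of mean-centred log2 values. The closest were Col8a2 (0.173), Mid1 (0.279), Sun1 (0.312), Adcy3 (0.327) and Kcnt1 (0.339), while Reln itself spanned 3.35 log2 units. Over the 5 brighter arrays the closest were Bhlhb9 (0.166), Zcchc14 (0.173), Adcy3 (0.181), Srprb (0.20) and Edem2 (0.242), so 1 gene was shared, the adenylate cyclase gene Adcy3. For Dab1 probe 1 the closest included Gm9258 (0.114), Ptprcap (0.123), Nkain1 (0.132) and Npr2 (0.133), and over the 5 brighter arrays Tspan32 (0.061), Mrps10 (0.074), Ccdc24 (0.083) and Scn4a (0.088). With so few arrays and so many genes, such likeness is a description of these arrays.

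Since FA feeds the methyl groups used on DNA, the CpG count of the promoter windows was read from RefSeq (GRCm38.p6, 250 bases before to 50 after each gene start), which held windows for 5 of the 7 genes and not for Cdk5 and Cdk5r1. The Reln window held 47 CpG, a count that 1.44% of 32851 windows reached, and 1 of the Dab1 windows held 46 (1.65%) while the other held 12. The Pafah1b1 window held 27, the Vldlr windows 8 and 23, and the Lrp8 windows 21, 5 and 4, against a median of 7. Methylation was not measured here.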

How the data were processed

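RNA of 6 pools was hybridized to Agilent SurePrint G3 mouse arrays. The authors scanned the arrays and took spot intensities with Agilent Feature Extraction 10.7.3.1 (the deposited scanner files), which subtracts background and flags each spot as well above background or not. The log2 values of the authors' deposited table were quantile normalized and given a floor, per the methods. From the scanner files, flagged outlier spots were dropped, spots of a probe averaged, log2 values quantile normalized over the 6 arrays, and a floor of 10 (log2 of 3.32) set. The fold rule kept probes whose variance passed a chi-square filter at p of 0.05, with at most 50% of values missing, and called a mean difference of 2.5-fold. Counts of all probes use those measured on every array.

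Levels of different probes are not compared. Sex and dose were fitted with limma 3.58.1 (R 4.3.3) on probes well above background on at least 2 arrays, and the fits were run on simulated data. There, changes of 4 log2 units with noise of SD 0.2 or 0.6, alike on every array, were recovered for 94% to 100% of changed probes. Recovery of smaller changes, or with a dim array, was not tested. The authors' processing can lower folds of dim spots, since values near background are replaced or floored. The number of arrays limits the precision. Members, lists and tests were chosen with earlier results of these data known. Partner genes were named if called in both sexes, or as the 3 largest calls per sex and direction well above background on every array of a dose. The pups of a pool come from different dams. The p-values measure the spread between arrays, which holds that of pools, extractions, slides and scan days together. In the sex fit it also holds any difference between the sexes in their dose difference. Some listed genes are not reported here. Of the scanner files 0 columns of another study were used. Alternatives were the scaling, background correction, floor, filters, blocks and arrays left out.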

Additional observations from a re-analysis of the deposited data

Results flagged for a closer look

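Dab1 probe 4 was higher on both female 20 mg arrays (by 1.12 and 0.28) and lower on both male 20 mg arrays (by 0.44 and 0.23, as differences of -0.44 and -0.23), so the sexes moved in opposite directions, with a female minus male difference of 1.04. In the limma fit the interaction for this probe had a standard error of 2.96, and the fit called 0 of 37206 probes for it. Such opposed directions were seen for 9.01% of detected probes, and one of the female values, on the dim array, was not well above background.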

How the results depend on the processing

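Of the alternatives tried, none turned the sign of the Reln differences, the called ones among the brightest probes of the genes. The count of member probes called higher in males (1, Reln) became 0 with the 75th percentile shift, normexp with an offset of 50, the mean signal, no floor and the authors' deposited values, and 2 on the later scan day alone, a comparison chosen after seeing the data. Leaving out each 20 mg array in turn gave 0 (without male 20 mg replicate 1) to 2 (without female 20 mg replicate 2 or male 20 mg replicate 2). The count called higher in females (1) became 0 with the 75th percentile shift, the mean signal, no floor and the deposited values, and stayed at 1 with each array left out. The count called lower in females (2) became 0 with the 75th percentile shift and on the later scan day, and 1 with normexp and the mean signal. It became 3 with the floor before normalization and in the deposited values, and 0 to 3 with an array left out (0 without the dim array). The cause was not tested, except that Reln failed the variation filter under the shift, no floor and the deposited values.

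Partner genes called lower in males (1) became 0 with the 75th percentile shift and 2 with no variation filter, and 0 to 2 with an array left out. Those higher in males (0) became 2 with normexp, 2 with the mean signal, 1 with the floor before normalization, 1 in the deposited values and 3 with no variation filter, and 0 to 2 with an array left out. Those lower in females (11) became 2 with the shift, 5 with normexp and 4 with the mean signal. They became 15 with the floor before normalization and 12 in the deposited values, and 1 to 14 with an array left out. Those higher in females (0) became 1 in the deposited values, and 0 to 2 with an array left out. The cause was not tested.

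For sex, limma called 0 probes, 4 with the shift and 0 to 204 with an array left out (204 without female 20 mg replicate 1, 1 without male 2 mg replicate 1). For dose, limma called 0 in each contrast. With an array left out it called 0 to 1 in males, 0 to 96 in females, 0 to 13 over both sexes and 0 to 2 for the interaction. In females it called 3 with the shift, 3 with normexp and 1 with the mean signal. With the replicate number as a block the sex fit called 0 probes (164 at an unadjusted p under 0.05). The 20 mg arrays of a number had a correlation of 0.0871 in their deviations. The female deviations include the dim array, so this value cannot show whether arrays of a number share dams or a batch. The slide as a random block could not be fitted for dose. Without one array of a pair the lone array is assumed to vary like the others.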
